A study of Zea mays with 15 samples.

Results

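The first day of growth of a young maize internode was described by setting 3 arrays of the seventh internode taken 24 h after a water spray against 3 arrays of the same internode taken before any spray. The 6 arrays were chosen by their titles, out of 15 in the whole experiment. RNA came from the internode meristem, the zone at the base of the internode where new cells of the stem form, of greenhouse seedlings with 8 leaves at the jointing stage, and each RNA sample came from 3 seedlings. Per the labels the arrays of each group were biological replicates, so the p-values rest on the spread between such 3-seedling samples. That spread was pooled over the groups of all 15 arrays, including those not compared here. No group carries a transgene, mutation or cultivar name in the labels. The seedlings of the water group stood as the controls of an ethephon treatment (600 mg/L, a growth regulator that releases ethylene), and the untreated seedlings received no spray. None of the 15 arrays holds untreated plants at 24 h or water-sprayed plants at 0 h, so the water spray and the day of growth cannot be told apart. Signals are linear MAS5 intensities per probe set, differences are log2 differences of water at 24 h minus untreated at 0 h with the limma standard error, and a probe set is said to have passed when its limma p, adjusted by Benjamini-Hochberg over 10573 kept probe sets, lay under 0.05.

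A grass internode lengthens from an intercalary meristem at its base, where cells divide before they expand and later lay down a secondary wall. Expansion needs loosening of the wall, new cellulose, water uptake through aquaporins and microtubules that orient the wall fibrils. Plastids in this zone are immature and are built up as cells leave the meristem, and they house the thiazole branch of thiamine synthesis.

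Before the results, 1 array and 1 quality measure need naming. The 3'/5' index, the mean log2 ratio of 3' over 5' probe sets of 7 pairs for control transcripts, which rises as RNA or labelled cRNA shortens, was 2.06, 1.52 and 2.24 on the water arrays, against 1.27, 0.21 and 1.27 on the untreated arrays. The groups did not overlap, and their difference of 1.02 had an exact two-sided permutation p = 0.1, the smallest that 3 against 3 arrays allow. Untreated replicate 2 stood apart, with the lowest index, a median signal of 297.8 and correlations of 0.712 to 0.825 with the water arrays, where the other untreated arrays had 0.788 to 0.919. The main counts and a number of the values below are given with and without this array. At the 5' end, the LysX spike gave signals of 21.1 to 32.2 on the water arrays, against 52.6 to 72.7 on the untreated arrays, and the BioB spike 472 to 524, against 305 to 361. The part of these quality differences in the gene results was not tested beyond the fits that hold the index as a covariate. Because the index did not overlap between the groups, a call lost in those fits does not show what that part is.

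The labelled tissue was checked against marker genes. The meristem gene kn1, a homeobox gene that keeps stem cells undetermined, had signals of 4257, 3742 and 3695 in water arrays, against 2524, 2752 and 3614 in untreated arrays, and pcna1, pcna2, cycD2 and lg3 also lay above the filter level. Signals of leaf genes were present too. The summed signal of 6 leaf markers (Cab-m7, rbcs1, psbs1 and pdk1, with the C4 genes me3 and pep1, both below the filter level) was 15681 to 18634 in water arrays, against 19413 to 34107 in untreated arrays. The highest sum was that of untreated replicate 2, and the other untreated arrays had 19413 and 22951. The summed signal of 5 vascular and secondary wall markers was 5568 to 6562 in water arrays, against 11267 to 18285 in untreated arrays, so the groups did not overlap on that sum. Taken singly, only 1 of the 5, cad, had groups that did not overlap. In untreated replicate 1, cad and CCR1 read 5661 and 4944, while cesa11, CesA12 and cesa10 read 256, 246 and 159.9. For water at 48 h minus untreated the median difference of the 5 was 0.10. For water at 24 h minus untreated the median of these 5 was -1.37, and -0.52 with the index in the fit as a covariate. In RNA of a whole tissue, fewer cells of a type and less RNA per cell cannot be told apart.

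In all, 182 of 10573 probe sets passed (1.72%), 93 higher (0.880%) and 89 lower (0.842%) in water arrays. The rises had log2 differences of 0.40 to 4.15 with a median of 1.31, and the falls of -0.43 to -4.26 with a median of -1.08. Differences over 1 were seen in 70 rises and 49 falls, and over 2 in 16 rises and 14 falls. In each of the 182 the signals of the groups did not overlap, and over all kept probe sets 23.6% did not overlap, 12.6% with water above and 11.0% with water below. At an unadjusted p under 0.05 stood 2000 probe sets (18.9%), 1124 higher (10.6%) and 876 lower (8.29%). Over all kept probe sets 54.1% lay higher and 45.9% lower, with a median difference of 0.046, and with arrays scaled to a common median the median was -0.076 and the calls were 69 higher and 99 lower. Without untreated replicate 2, 79 probe sets passed, 41 higher and 38 lower, with the index in the fit as a covariate 6 passed, and in a fit of the 6 arrays alone 11 passed, none of them with a gene name.

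**Figure D1:**
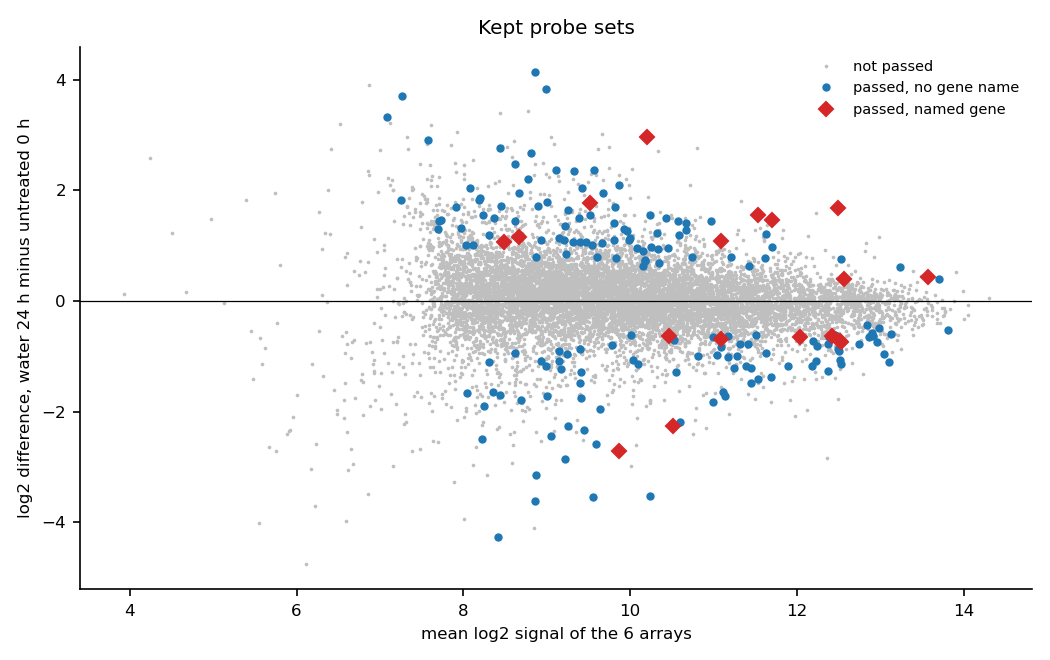
Log2 difference, water 24 h minus untreated 0 h (vertical axis), against the mean log2 signal of the 6 arrays (horizontal axis) for the 10573 kept probe sets; large markers are the 182 that passed, with diamonds for those that have a gene name. Rises and falls were of similar number, 93 and 89, and reached 4.15 and -4.26.

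Most of the probe sets that passed had no gene name in the annotation used, 164 of 182. The named ones stood for 17 genes, and 14 of these passed through the probe set that represents the gene. Among the 762 named genes 14 passed (1.84%), 8 higher (1.05%) and 6 lower (0.787%), close to the share over all probe sets. Of the 762, 48.7% lay higher and 51.3% lower. In the following all 14 are described, and their signals at 48 h after water are set beside those of 24 h. Of 6 fits that each left out 1 array, 4 kept the calls of rnc1, rcalm and thi1-2, 3 those of cycD2 and thi1, 2 that of lox1, and 1 those of rpo2, trxh1, cop2 and copz2. With untreated replicate 2 left out, 5 of the 14 passed (GRP, hsp101, tha9, thi1 and thi1-2), and without water replicate 2, 4 passed (GRP, hsp101, rcalm and tha9).

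**Figure D2:**
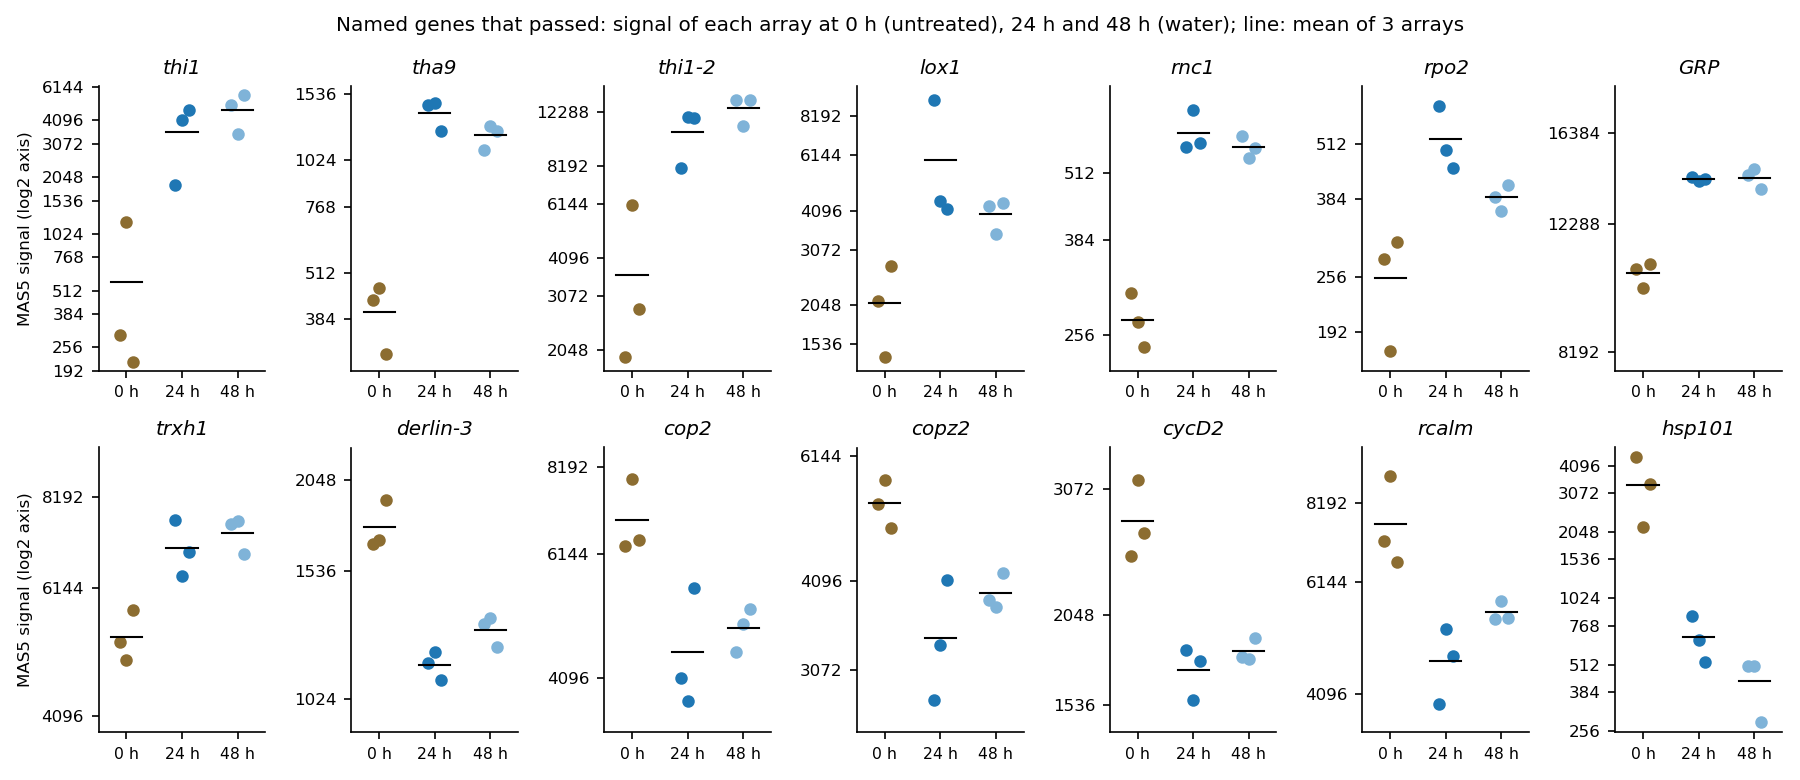
MAS5 signal (log2 axis) of each array for the 14 named genes that passed, at 0 h untreated, 24 h after water and 48 h after water; bars are means of 3 arrays. In each panel the 24 h points lie wholly above or wholly below the 0 h points, and on the log axis the 48 h mean lies nearer to the 24 h mean than to the 0 h mean.

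The largest named rise was thi1, which encodes the enzyme that makes the thiazole part of thiamine. Its signals were 1867, 4102 and 4666 in water arrays, against 299, 1185 and 213 in untreated arrays. The lowest water array lay above the highest untreated array, and untreated replicate 2 was the highest of its group. The difference was 2.96 ± 0.53 (adjusted p = 0.0132, 7.80-fold), and without untreated replicate 2 it was 3.71 (adjusted p = 0.00105). Its close relative thi1-2 read 8033, 11830.3 and 11757 in water arrays, against 1949.5, 6092 and 2793 in untreated arrays, a difference of 1.69 ± 0.31 (adjusted p = 0.0149). Again untreated replicate 2 lay nearest to the water arrays, and without it the difference was 2.15 (adjusted p = 0.000574). At 48 h after water thi1 stood at 4679 ± 1107 and thi1-2 at 12632 ± 1353 (SD, n = 3).

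The rise of tha9 passed under more settings than those of thi1, thi1-2 and rnc1. It is a relative of tha4, a subunit of the twin-arginine translocase that carries folded proteins into the thylakoid, and its probe set is of a type that may match several transcripts. Signals of tha9 were 1433, 1453 and 1221 in water arrays, against 433, 465 and 311 in untreated arrays. All 3 water arrays lay well above the highest untreated array, with a difference of 1.78 ± 0.20 (adjusted p = 0.000892). It passed in 6 of 6 fits that left out 1 array, and it was the 1 named gene that also passed with the index as a covariate (2.04, adjusted p = 0.0322). With an index that leaves out the Actin pair it did not pass (1.98, adjusted p = 0.0554). The gene rnc1, whose product helps splice chloroplast introns, read 572, 668 and 580.1 in water arrays, against 307, 271 and 244 in untreated arrays. Its groups lay well apart and its difference was 1.15 ± 0.21 (adjusted p = 0.0138).

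The wider list of chloroplast biogenesis genes held 10 kept genes of 20. Of these, 9 lay higher in water arrays and 1 lower, with a median difference of 0.70, and 2 passed, tha9 and rnc1. Among all 762 named genes 48.7% lay higher and 1.05% passed as rises. The groups did not overlap for 6 of the 10, all with water above, where the share over all probe sets was 12.6%. The members that did not pass include tha4 itself (2293, 3207 and 2385 in water arrays, against 1949, 2248 and 1299 in untreated arrays, difference 0.54 ± 0.21, adjusted p = 0.198). Differences were 0.67 ± 0.24 for toc34 (adjusted p = 0.164) and 0.73 ± 0.30 for toc35 (adjusted p = 0.222), GTPase receptors that bring proteins to the plastid envelope. Without untreated replicate 2 again 9 of 10 lay higher, with a median of 0.63, and with the index as a covariate the median was 0.77. The sigma factor gene sig6 was the 1 member below 0, at -0.19.

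A phage-type RNA polymerase gene of organelles, rpo2, read 625, 496 and 453 in water arrays, against 281, 173 and 307 in untreated arrays. Untreated replicate 2 was the lowest array, and the difference of 1.08 ± 0.25 (adjusted p = 0.0492) passed narrowly. At 48 h after water its signal was 388 ± 27.0, and without untreated replicate 2 the difference was 0.82 (adjusted p = 0.176).

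Genes of photosynthesis lay mostly lower, without passing. Of 22 kept genes for light harvesting, electron transport and the C4 cycle, 5 lay higher and 17 lower in water arrays, with a median of -0.34, and none passed. The 4 with an unadjusted p under 0.05 all lay lower, where the share over all probe sets was 8.29%. The light-harvesting gene Cab-m7 read 8855, 9756 and 7625 in water arrays, against 13543, 16568 and 10474 in untreated arrays, and lhcb6 5989, 6933 and 7869, against 10837, 12872 and 9289. In both the highest signal was that of untreated replicate 2, and the differences were -0.61 ± 0.35 (adjusted p = 0.355) and -0.66 ± 0.28 (adjusted p = 0.233). For the Rubisco small subunit gene rbcs1 the groups overlapped, and the difference was -0.24 ± 0.33 (adjusted p = 0.706). The ferredoxin gene fdx3 overlapped as well, at -0.34 ± 0.24 (adjusted p = 0.459). It was placed in this list by its symbol, and whether its product serves photosynthesis was not tested. This list turned on 1 array: without untreated replicate 2, 10 of 22 lay higher and the median was -0.03. Of 4 kept chlorophyll and carotenoid genes none passed, and oy1, a subunit of magnesium chelatase, lay at -0.48 ± 0.47 with overlapping groups (adjusted p = 0.58).

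The other named rises were those of lox1, GRP and trxh1. The lipoxygenase gene lox1, whose product oxygenates polyunsaturated fatty acids, read 9216, 4401 and 4144 in water arrays, against 2104, 1403 and 2734 in untreated arrays. Water replicate 1 stood far above the other water arrays, and all 3 lay above the untreated ones. Its difference was 1.46 ± 0.30 (adjusted p = 0.0333), and a second probe set of the gene gave 1.56 ± 0.33 (adjusted p = 0.0375). The remaining 5 kept genes of jasmonate synthesis did not pass: aos1, allene oxide synthase, lay at -0.44 ± 0.35 (adjusted p = 0.491), aoc1, allene oxide cyclase, at 0.30 ± 0.23 (adjusted p = 0.491), and the reductase gene opr7 at -0.23 ± 0.24 (adjusted p = 0.608). The median of all 6 was -0.30.

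GRP showed a small and tight rise. It read 14252, 14048 and 14149.8 in water arrays, against 10667, 10044 and 10821 in untreated arrays, a difference of 0.43 ± 0.06 (adjusted p = 0.00457, 1.35-fold). The spread within each group was far smaller than the gap between them, and GRP passed in 6 of 6 fits that left out 1 array. It did not pass after scaling to a common median or with the index as a covariate (0.39, adjusted p = 0.283). The thioredoxin h gene trxh1, a cytosolic disulfide reductant, read 7624, 6388 and 6885 in water arrays, against 5184, 4886 and 5729 in untreated arrays (difference 0.40 ± 0.09, adjusted p = 0.0467). Among the 11 kept redox genes it was the 1 that passed. A second thioredoxin gene, trh2, had overlapping groups and a difference of 0.11 ± 0.13 (adjusted p = 0.643), and the differences were -0.87 ± 0.53 for GR1a and -0.34 ± 0.66 for the superoxide dismutase gene Sod4A (adjusted p = 0.384 and 0.79).

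The largest named fall was that of hsp101, a ClpB-type chaperone that pulls aggregated proteins apart. Its signals were 854, 663 and 528 in water arrays, against 4459.9, 2155 and 3379 in untreated arrays. Every water array lay far below every untreated array, with a difference of -2.25 ± 0.33 (adjusted p = 0.00457, 4.77-fold lower). It passed in 6 of 6 fits that left out 1 array, and at 48 h after water the signals were 505, 504 and 279.6. With the index as a covariate its difference was -2.48 (adjusted p = 0.13).

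Other chaperone genes gave no call. Of 24 kept members of the heat shock and chaperone list, 11 lay higher and 13 lower, with a median of -0.05, and hsp101 was the 1 that passed. The median was -0.13 with 7 higher when untreated replicate 2 was left out, -0.23 with 6 higher when the index was a covariate, -0.17 after scaling to a common median and 0.01 after quantile normalization. The HSP70 gene hsp70-5 read 8968, 9023 and 8879 in water arrays, against 11764, 10692 and 10946 in untreated arrays, groups apart, at -0.31 ± 0.08 (adjusted p = 0.078). Its relative hsp70-4 overlapped, at -0.13 ± 0.09 (adjusted p = 0.465). The calreticulin gene crt2 lay at 0.01 ± 0.16 (adjusted p = 0.977) and the disulfide isomerase gene pdi7 at -0.17 ± 0.13 (adjusted p = 0.489). The small heat shock genes hsp22, hsp18a and hsp18f, named after their values were seen, lay at -1.41, -1.13 and -0.86 without passing (adjusted p = 0.168, 0.122 and 0.272).

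The D-type cyclin gene cycD2, which drives entry into DNA synthesis, fell. It read 1829, 1559 and 1766 in water arrays, against 2479.7, 3168 and 2668 in untreated arrays, a difference of -0.69 ± 0.13 (adjusted p = 0.0213). The groups stood clear of each other, and at 48 h after water the signals were 1794, 1782 and 1902. Without untreated replicate 2 the difference was -0.59 (adjusted p = 0.0914). It was the 1 of 13 kept cell cycle genes that passed, and 8 lay higher and 5 lower, with a median of 0.14. The cyclin-dependent kinase gene cdc2 read 2491, 2327 and 2189 in water arrays, against 2373, 2689.6 and 1992 in untreated arrays, with overlapping groups and an adjusted p of 0.997. The genes pcna1 and pcna2, for the sliding clamp of DNA replication, varied widely within both groups, with 429 to 1980.1 and 762 to 2688 in water arrays, against 585 to 1707 and 778 to 2003 in untreated arrays. Their differences were 0.08 ± 0.83 (adjusted p = 0.966) and 0.36 ± 0.80 (adjusted p = 0.818).

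The genes for vesicle traffic held 2 of the 6 named falls, cop2 and copz2, which encode subunits of the coatomer that coats vesicles of the Golgi. The signals of cop2 were 4093, 3800.1 and 5496 in water arrays, against 6310.3, 7869 and 6438 in untreated arrays, a difference of -0.63 ± 0.15 (adjusted p = 0.0492). Those of copz2 were 2779.9, 3330.1 and 4111, against 5252, 5690.5 and 4865, a difference of -0.64 ± 0.14 (adjusted p = 0.0407). In both genes water replicate 3 lay nearest to the untreated arrays without reaching them. Of the 7 kept genes of the secretory list 1 lay higher and 6 lower, with a median of -0.49, and the 2 coatomer genes passed. Among all 762 named genes 51.3% lay lower and 0.787% passed as falls. The list was chosen with earlier results of these data known. The GTPase genes arf1, whose product recruits coatomer, and ypt2, of the Rab type, lay at -0.49 ± 0.15 (adjusted p = 0.117) and -0.85 ± 0.22 (adjusted p = 0.0782). Without untreated replicate 2 neither coatomer gene passed, at -0.53 (adjusted p = 0.212) and -0.59 (adjusted p = 0.169), while the list's median was -0.43.

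The gene derlin-3, whose product serves the export of misfolded proteins from the endoplasmic reticulum, read 1148, 1189 and 1087 in water arrays, against 1671, 1691 and 1922 in untreated arrays. The groups were tight and apart, with a difference of -0.62 ± 0.13 (adjusted p = 0.0292), although it passed in 0 of the 6 fits that left out 1 array, where it ranged between -0.66 and -0.56. Its relatives der4 and der2 lay at 0.19 ± 0.25 and -0.63 ± 0.27 (adjusted p = 0.691 and 0.233). The last named fall was rcalm, with 3951, 5178 and 4691 in water arrays, against 7122, 9019 and 6600.00 in untreated arrays (difference -0.71 ± 0.13, adjusted p = 0.015). The calmodulin gene cal2 overlapped between the groups (-0.12 ± 0.12, adjusted p = 0.612), as did the kinase genes CDPK2 (-0.35 ± 0.17, adjusted p = 0.28) and CDPK (0.20 ± 0.18, adjusted p = 0.566).

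A further 3 genes passed through a second probe set while the one with the highest signal did not. For the tubulin gene tub5 the second probe set read 202, 526 and 460.4 in water arrays, against 1294, 7832 and 1368 in untreated arrays (difference -2.72 ± 0.62, adjusted p = 0.0486), and the first gave -0.67 ± 0.28 (adjusted p = 0.224). Untreated replicate 2 stood far above the other untreated arrays on that second probe set, and with it left out the difference was -1.86 (adjusted p = 0.123) and did not pass. For GAPC, a cytosolic glyceraldehyde-3-phosphate dehydrogenase, the second probe set gave 1.09 ± 0.22 (adjusted p = 0.0264) and the first -0.03 ± 0.10 (adjusted p = 0.904). For LOC541999 the probe sets gave -0.73 ± 0.16 (adjusted p = 0.04) and -0.23 ± 0.07 (adjusted p = 0.114). The probe sets of each of these genes disagreed in size. With untreated replicate 2 left out the second probe sets of GAPC and LOC541999 did not pass either, at 0.90 (adjusted p = 0.116) and -0.54 (adjusted p = 0.129).

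**Figure D3:**
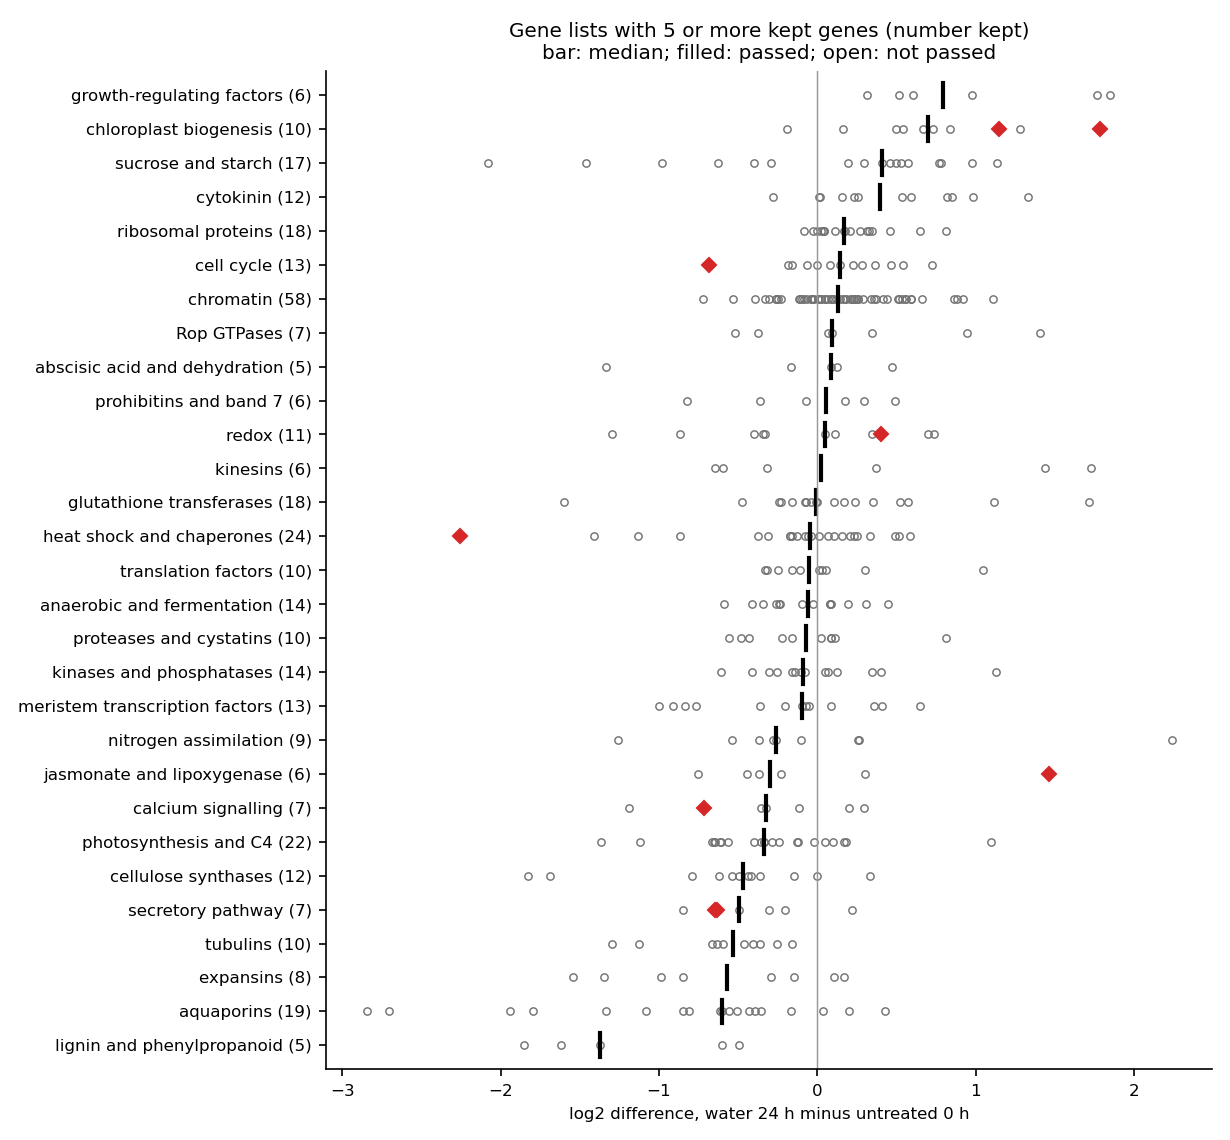
Log2 difference, water 24 h minus untreated 0 h (horizontal axis), of each kept gene in the lists with 5 or more kept genes; bars are list medians, filled diamonds passed and open circles did not. Medians ran from -1.37 for lignin genes to 0.79 for growth-regulating factors, and most lists held members on both sides of 0.

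Wall and cytoskeleton genes lay mostly lower in water arrays, and apart from the second probe set of tub5 none passed. All 10 tubulin genes had a negative difference, with a median of -0.53, and the groups did not overlap for 7 of them, where 11.0% of all probe sets did so with water below. The α-tubulin gene tua4 read 13677, 16525 and 16847 in water arrays, against 18224, 20494 and 17354 in untreated arrays (difference -0.26 ± 0.10, adjusted p = 0.18). The β-tubulin genes tub6, tub7 and tub4 lay at -0.40 ± 0.14, -0.36 ± 0.15 and -1.13 ± 0.38 (adjusted p = 0.147, 0.23 and 0.147). Without untreated replicate 2 the 10 differences were again negative, with a median of -0.44, and with the index as a covariate 9 were. The actin-binding genes ADF3, prf5 and profilin-2 lay at -0.32 ± 0.12, -0.55 ± 0.19 and -0.41 ± 0.15 (adjusted p = 0.193, 0.158 and 0.17).

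Cellulose synthase genes had 11 of 12 kept members lower and 1 higher, with a median of -0.47. The primary wall genes CesA-9, cesa7, cesa6 and CesA-4 lay at -0.42 ± 0.30, -0.54 ± 0.32, -0.44 ± 0.25 and -0.36 ± 0.40, each with overlapping groups (adjusted p = 0.451, 0.368, 0.352 and 0.629). The secondary wall genes varied widely within the untreated group. The signals of cesa11 were 256, 327 and 295 in water arrays, against 256, 2114 and 1526 in untreated arrays, and those of cesa10 176, 340.1 and 114, against 159.9, 1794 and 1062. Untreated replicate 1 was as low as the water arrays, and the other untreated arrays were several times higher.

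The 5 kept genes of lignin synthesis all lay lower, with a median of -1.37. Signals of cad, cinnamyl alcohol dehydrogenase, were 2171, 2586 and 2754 in water arrays, against 5661, 5564 and 8529 in untreated arrays (difference -1.37 ± 0.46, adjusted p = 0.142). Those of 4CL, which activates cinnamic acids for lignin, were 1036, 1001 and 649.5, against 2379, 2772 and 2970.2 (difference -1.62 ± 0.55, adjusted p = 0.146). In both genes the groups did not overlap, and the same held for pal3, phenylalanine ammonia lyase (-0.60 ± 0.23, adjusted p = 0.183), but not for the reductase gene CCR1 (-0.50 ± 0.44, adjusted p = 0.545). In all, the groups did not overlap for 4 of the 5, each with water below, where 11.0% of all probe sets did so. The 5 vascular and secondary wall markers given above are cad, CCR1 and the 3 secondary wall cellulose synthases, all of them members of these lists. Their lower sum is therefore not a separate result, and the median of -1.37 in both sets of 5 is the value of cad. The part of these markers in the result was not tested.

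Expansins, which loosen walls, had 2 of 8 kept genes higher and 6 lower, with a median of -0.57. The gene expB8 read 5656, 4275 and 5463 in water arrays, against 5660.2, 8014 and 5345 in untreated arrays (difference -0.29 ± 0.17, adjusted p = 0.369), and the groups overlapped. For expB4 they did not, with 3075, 875 and 2732 in water arrays, against 3335, 6876 and 5283 in untreated arrays (difference -1.35 ± 0.65, adjusted p = 0.284). EXPA5 and expB6 lay at 0.17 ± 0.64 and -0.99 ± 1.44 (adjusted p = 0.901 and 0.723).

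Aquaporins had 3 of 19 kept genes higher and 16 lower, with a median of -0.60 and -0.45 without untreated replicate 2. The plasma membrane genes pip1-2, pip2e and PIP1-1 lay at -0.51 ± 0.18, -0.60 ± 0.20 and -0.81 ± 0.33, each with all water arrays below the untreated ones (adjusted p = 0.169, 0.143 and 0.215). The vacuolar gene tip1 overlapped, at -0.17 ± 0.15 (adjusted p = 0.558). Another vacuolar gene, tip2a, named after its values were seen, read 1153, 1192 and 5545 in water arrays, against 14039.9, 14715 and 13706 in untreated arrays (difference -2.85 ± 0.86, adjusted p = 0.114). Water replicate 3 stood far above the other water arrays, and all 3 lay below the untreated ones. These plasma membrane genes and tip2a were the only 4 of the 19 whose groups did not overlap. Over all probe sets 11.0% did so with water below.

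Sucrose and starch genes went both ways, with 11 of 17 kept genes higher, 6 lower and a median of 0.41. The vacuolar invertase gene ivr2, which splits sucrose in expanding cells, read 539, 3197 and 4364 in water arrays, against 8406, 9137 and 7389 in untreated arrays (difference -2.08 ± 0.71, adjusted p = 0.147). All water arrays lay below the untreated ones, and water replicate 1 was the lowest by far. The sucrose synthase genes sus1 and sh1 lay at -0.40 ± 0.16 and 0.46 ± 0.29 (adjusted p = 0.206 and 0.399), and the starch gene Agp2 at 0.77 ± 0.54 (adjusted p = 0.444). None of the 17 passed, 2 had an unadjusted p under 0.05 with a higher signal, near the 10.6% over all probe sets, and 4 with a lower one, where the share over all probe sets was 8.29%. Without untreated replicate 2 the median was 0.15.

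Growth-regulating factors are transcription factors that promote cell proliferation together with coactivators such as AN3. The 6 kept genes of 8 lay higher in water arrays (5 of 6 with the index as a covariate) and had a median of 0.79 and 0.65 without untreated replicate 2, and none passed. GRF12 read 447, 440.4 and 448 in water arrays, against 343, 237 and 307 in untreated arrays (difference 0.61 ± 0.24, adjusted p = 0.201). GRF8 read 1359.8, 262 and 399, against 182, 94.2 and 178, and water replicate 1 stood far above the others (difference 1.85 ± 1.18, adjusted p = 0.402). GRF5 and GRF4 overlapped, at 0.51 ± 0.38 and 0.31 ± 0.25 (adjusted p = 0.474 and 0.509). Of the coactivators, AN3 had 1371, 1356 and 108 in water arrays, against 138, 29.0 and 68.3 in untreated arrays (difference 3.18 ± 1.55, adjusted p = 0.291), so that water replicate 3 was as low as the untreated arrays, while GIF3 and GIF2 lay at 0.92 ± 0.50 and -0.06 ± 0.27 (adjusted p = 0.335 and 0.915). The untreated signals of GRF8 and AN3 lay below the filter level of 218.3, so the size of both differences is uncertain.

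Cytokinin genes lay higher in 11 of 12 kept members, with a median of 0.39, and none passed. The phosphotransfer genes hp2, HP1 and HP3, which carry the signal to the nucleus, lay at -0.28 ± 0.25, 0.23 ± 0.27 and 0.26 ± 0.34 with overlapping groups (adjusted p = 0.558, 0.655 and 0.701). The response regulator gene RR6 read 813, 1008 and 1321 in water arrays, against 266, 709 and 1689 in untreated arrays (difference 0.59 ± 0.53, adjusted p = 0.554). The response regulator RR5 and the receptor HK1, named after their values were seen, lay at 1.33 ± 0.36 and 0.98 ± 0.26 with groups apart (adjusted p = 0.0847 and 0.081). The list depended on 1 array: without untreated replicate 2, 8 of 12 lay higher and the median was 0.14, and with the index as a covariate 7 lay higher and the median was 0.04.

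Ribosomal protein genes lay higher in 15 of 18 members, by a median of 0.17, and without untreated replicate 2 in 12, by 0.03. Of these rps27 read 12572, 13147 and 11954 in water arrays, against 11971, 8603 and 9428 in untreated arrays (difference 0.34 ± 0.12, adjusted p = 0.171), and arpp3, RPL27A and RPL10 lay at 0.20 ± 0.11, 0.02 ± 0.12 and -0.09 ± 0.10. Among translation factors eif5a lay just short of passing, with 8751, 8297 and 8914 in water arrays, against 10408, 10842 and 11123 in untreated arrays (difference -0.32 ± 0.07, adjusted p = 0.052). The groups of eif5a did not overlap. Of 58 kept chromatin genes 40 lay higher and 18 lower, with a median of 0.13, and without untreated replicate 2, 28 lay higher and the median was -0.01. None of these 3 lists held a gene that passed.

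The remaining hormone and meristem genes gave no call. The gibberellin synthesis gene d3 read 207, 104 and 149 in water arrays, against 121, 148 and 202 in untreated arrays, below the filter level of 218.3 in both groups and kept through other arrays, and the ethylene receptor gene etr2 411, 212 and 261, against 308, 311 and 485. The auxin-binding protein gene abp1 lay at 0.25 ± 0.16 and the dehydrin gene dhn1 at -1.34 ± 1.34 (adjusted p = 0.392 and 0.596), where water replicate 1 had 5275 and the other water arrays 118 and 177. Of 13 kept meristem transcription factor genes 4 lay higher and 9 lower, and kn1 lay at 0.41 ± 0.15 (adjusted p = 0.167) with all water arrays above the untreated ones. The MADS-box genes zmm19, m28 and m15 overlapped, at -0.20 ± 0.18, -0.05 ± 0.21 and -0.10 ± 0.53.

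Probe sets without a gene name held the largest changes. The probe set with the largest rise, whose ID stands above its panel in the plot of unnamed probe sets, read 1988, 1737 and 2175 in water arrays, against 91.2, 137 and 108 in untreated arrays, a difference of 4.15 ± 0.30 (adjusted p = 3.17e-05). The one with the second largest rise read 1058, 2339 and 2862, against 98.3, 191 and 131 (difference 3.83 ± 0.53, adjusted p = 0.00386). The untreated signals of both lay below the filter level, so the size of the rise is uncertain. In the other direction, the largest fall read 65.0, 72.8 and 101 in water arrays, against 1596, 2300.2 and 916 in untreated arrays (difference -4.26 ± 0.46, adjusted p = 0.000676). The second largest fall read 141, 177 and 92.7, against 1269, 2732 and 1223 (difference -3.61 ± 0.36, adjusted p = 0.000406), and in both falls the water signals lay below the filter level. Each of the 4 passed in 6 of 6 fits that left out 1 array, and the largest rise and the second largest fall passed with the index as a covariate too. Other probe sets whose IDs share the cluster number of the second largest fall also passed as falls. Most of them fell by less than 2 and had water signals above the filter level, so the probe sets of that cluster disagreed in size. Among all calls, 25 rises had an untreated mean and 9 falls a water mean below the filter level.

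**Figure D4:**
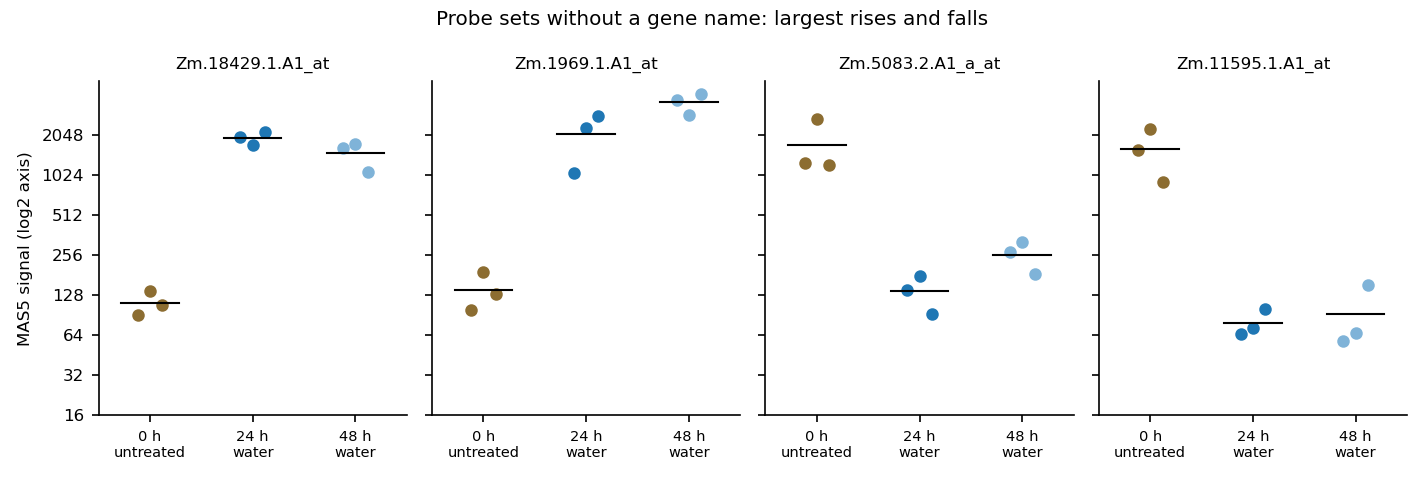
MAS5 signal (log2 axis) of each array for the 2 largest rises and the 2 largest falls among probe sets without a gene name, at 0 h untreated, 24 h after water and 48 h after water; bars are means of 3 arrays. In the 2 rises each 24 h and 48 h array lies above each 0 h array, and in the 2 falls each lies below.

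The second day was set against the first by comparing water at 48 h with water at 24 h. This comparison shares the 24 h water arrays with the one above. No probe set passed (0%, 0% higher and 0% lower, by limma), and the lowest adjusted p was 0.992. At an unadjusted p under 0.05 stood 344 probe sets, fewer than the 529 expected by chance. In the 14 named genes the 48 h minus 24 h difference ran from -0.69 for hsp101 to 0.48 for thi1. Set against the untreated arrays, water at 48 h gave 84 calls (0.794%), 39 higher (0.369%) and 45 lower (0.426%). The 3'/5' index was 0.93 to 1.57 on the water 48 h arrays, against 0.21 to 1.27 on the untreated arrays. These are the same untreated arrays through which the 14 genes were found, so the values that follow are not a separate check of them. In water at 48 h against untreated, thi1 lay at 3.44 ± 0.53 (adjusted p = 0.00586), thi1-2 at 1.97 ± 0.31 (0.00711), tha9 at 1.58 ± 0.20 (0.0015) and hsp101 at -2.94 ± 0.33 (0.000847). The differences of lox1 and cycD2 were 0.99 ± 0.30 and -0.60 ± 0.13 without passing (adjusted p = 0.244 and 0.0642).

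Seedlings sprayed with ethephon and taken at 24 h gave another level of the same genes. Ethephon at 24 h set against water at 24 h, which shares the water arrays, gave no call (0%, 0% higher and 0% lower, by limma), with a lowest adjusted p of 0.375. There 951 probe sets had an unadjusted p under 0.05, where 529 are expected by chance. Set against the untreated arrays, which are those of the first comparison, ethephon at 24 h gave 586 calls (5.54%), 318 higher (3.01%) and 268 lower (2.53%). The 3'/5' index was 1.91 to 2.04 on these ethephon arrays, against 0.21 to 1.27 on the untreated arrays. Its part in these calls was not tested. The signals of hsp101 were 869.96, 902 and 732 in ethephon arrays at 24 h, against 854, 663 and 528 in water arrays, a difference of 0.31 ± 0.33 (adjusted p = 0.694). Those of cycD2 were 2945, 2659.6 and 2911, against 1829, 1559 and 1766, a difference of 0.73 ± 0.13 (adjusted p = 0.375). The ethephon arrays of cycD2 lay above all its water arrays. For thi1 and thi1-2 the differences were -0.04 ± 0.53 and -0.37 ± 0.31 (adjusted p = 0.974 and 0.633).

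**Figure D5:**
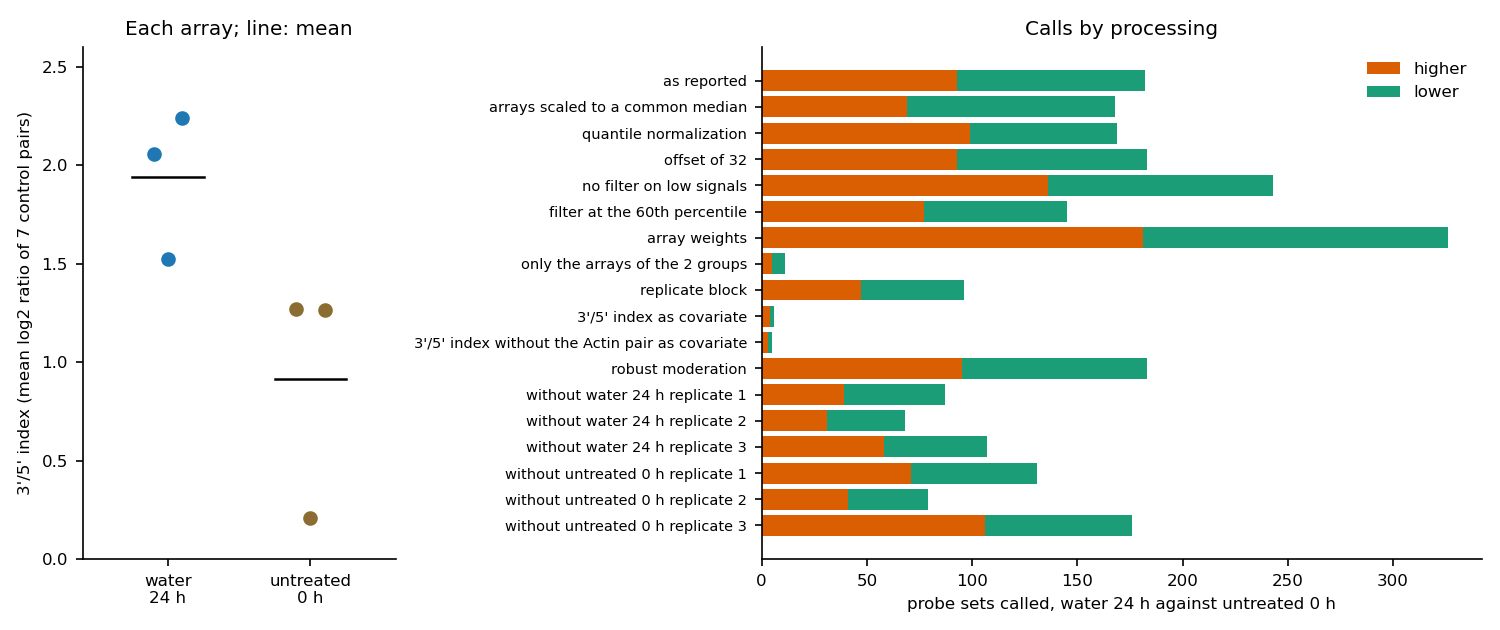
Left, 3'/5' index of each array (mean log2 ratio of 7 control pairs) in the water 24 h and untreated 0 h groups, with the group mean as a bar; right, number of probe sets called higher and lower under each way of processing. The index was 1.52 to 2.24 on water arrays and 0.21 to 1.27 on untreated arrays, and the calls ranged between 5 and 326.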

How the data were processed

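The deposited values are MAS5 intensity values on a linear scale, 1 per probe set of an Affymetrix maize array (MAS5 per the submitters' processing notes). The sources used here do not give the MAS5 version or scaling target. No detection calls were used. Biotin-labelled cRNA was made by 3' IVT from 200 ng of total RNA per sample, per the labels' protocols. The number of arrays, 3 per group, limits the precision.

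Of 17734 probe sets, 113 controls were left out, and the 10573 of 17621 with a mean signal over 15 arrays at or above the 40th percentile (218.3) were kept. Log2 signals were fitted with limma 3.58.1 (R 4.3.3) as 5 group means over 15 arrays, with a mean-variance trend, which leaves 10 residual degrees of freedom, and p-values were adjusted by Benjamini-Hochberg over all kept probe sets at a threshold of 0.05. The fit was also run on simulated data with independent noise. That simulation held no outlying array and no shift in RNA quality, so it does not bear on those limits of the calls. Tables were made with Python 3.11.15 and pandas 2.3.3, and figures with matplotlib 3.10.9.

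Gene names came from the platform annotation: 1452 probe sets had exactly 1 symbol, standing for 1108 genes, and 16169 had no single name. Of the genes, 1060 matched RefSeq by gene ID. A gene is represented by its probe set with the highest mean signal. Named genes were the largest rises and falls that passed (up to 15 each way), and in each gene list up to 4 kept members with the highest mean signal plus those that passed. The members and gene lists were chosen with earlier results of these data known. Alternatives changed the scaling, offset, filter, array weights, moderation, covariates and the arrays included. Same-numbered arrays did not deviate together, with correlations of -0.157, 0.0124 and -0.00069, so the numbers were not taken to pair them.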

Additional observations from a re-analysis of the deposited data

How the results depend on the processing

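The called probe sets kept their sign under each alternative in which they were tested, 182 in each but the filter at the 60th percentile, which tested 136. Because the groups of each of the 182 did not overlap, leaving out an array or adding an offset could not change a sign. The fits with another filter, robust moderation or the 2 groups alone use the same difference. For those alternatives the kept signs are no test of the calls. The number of calls in water at 24 h against untreated at 0 h, main value 182 (93 higher, 89 lower), was 326 with array weights (181 higher, 145 lower), 11 with only the arrays of the 2 groups (5 higher, 6 lower), 6 with the index in the fit as a covariate (4 higher, 2 lower) and 5 with an index without the Actin pair (3 higher, 2 lower), an alternative chosen after seeing the data. With the replicate number as a block it was 96 (47 higher, 49 lower), and the numbers share no more than a label. Leaving out 1 array gave 68 to 176 calls, 31 to 106 higher and 37 to 70 lower. The lowest count came without water 24 h replicate 2, and 79 passed without untreated replicate 2. Water at 48 h against water at 24 h gave 0 to 2 calls when 1 array was left out, and ethephon at 24 h against water at 24 h gave 0 to 2, with 169 under array weights. The index difference of 1.02 was 0.672 to 1.23 when 1 array was left out. The cause of these changes was not tested. Of the 14 named genes, 14 passed with an offset of 32, array weights and robust moderation, 10 after scaling to a common median or quantile normalization, 7 with the block, 1 with the index and 0 in a fit of the 2 groups alone. Signals below the filter level limit the size of the largest differences.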

Other observations

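Gene lists not described above held no gene that passed through the probe set that stands for it. Of 14 kept genes of anaerobic metabolism and glycolysis 6 lay higher and 8 lower in water arrays. Among them the glyceraldehyde-3-phosphate dehydrogenase gene gpc2 lay at -0.23 ± 0.08 (adjusted p = 0.167), the enolase gene eno1 at -0.10 ± 0.08 (adjusted p = 0.511) and the aldolase gene ald1 at -0.26 ± 0.11 (adjusted p = 0.244). Of 18 kept glutathione transferase genes 8 lay higher and 10 lower, and gst1 lay at -0.24 ± 0.07 (adjusted p = 0.114).

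The 3 kept genes of benzoxazinoid and indole synthesis, which serve defence, lay higher without passing. The signals of bx1 were 1371, 2373 and 4159 in water arrays, against 242, 136 and 2859 in untreated arrays (difference 2.39 ± 1.31, adjusted p = 0.336), and bx6 and igl1 lay at 0.63 ± 0.34 and 0.16 ± 0.35. Nitrogen assimilation genes lay lower in 6 of 9 kept members, with gdh1, glutamate dehydrogenase, at -0.28 ± 0.19 (adjusted p = 0.429). Of 4 voltage-dependent anion channel genes of the mitochondrial outer membrane 1 lay higher and 3 lower, and vdac1a lay at -0.22 ± 0.21 (adjusted p = 0.568).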
